A study of Mus musculus with 6 samples.

Results

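Immediate early genes are switched on within minutes of a stimulus, without new protein synthesis, and are switched off again almost as fast. They include the AP-1 factors, basic leucine zipper proteins that pair through FOS and JUN subunits to bind DNA, zinc finger and nuclear receptor factors, and inhibitors that end the response. MAP kinases, serum response factor (SRF) and CREB are their known upstream regulators. Cutting, warming and waiting also induce them, so in dissected tissue they are widely read as a trace of handling. The genes described here are *Fos*, *Fosb*, *Jun*, *Junb*, *Egr1*, *Ier2*, *Atf3*, *Dusp1*, *Nr4a1* and *Zfp36*. They were chosen by name for their roles, when earlier results of these data were known. All 10 were found among the 14865 genes of the deposited table, and all 10 passed the minimum of 40 normalized reads in at least 1 library that 14455 genes passed.

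The samples were cochlear ducts of C57BL/6 mice at postnatal day 8. The Gfi1+/+ group carried no Cre allele, and each of its 3 libraries held RNA from 2 cochleae of 1 mouse. The Gfi1cre/+ group carried 1 *Gfi1* allele in which the Cre recombinase coding sequence replaces part of the gene, and each of its 3 libraries pooled RNA from 6 cochleae of 3 mice. Cre in this line follows the *Gfi1* promoter, and a reporter for it was also recombined in immune cells of the inner ear. By the paper, those cells expressed Cre at some stage of development, but not necessarily at the age studied. No agent was given to either group. The labels and methods name neither a dissection time nor an order of dissection, and no batch.

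The values are normalized reads, that is, reads counted on a gene divided by 1 size factor per library, and are given for each genotype in the order of its replicates 1, 2 and 3. The recovered totals ran from 13603908 to 19359753 reads, so that each of these genes rested on between 33 and 1303 reads per library. *Gfi1* itself had 147, 160 and 152 normalized reads in Gfi1+/+, and 136, 130 and 139 in Gfi1cre/+. The allele keeps the remaining exons, so this count over the whole gene checks the labels only weakly. Gfi1+/+ replicate 1 stood apart from the rest on the first principal component of all genes (score -44.0, against -0.304 to 16.2 in the other 5 libraries). The 4 Y-linked genes *Ddx3y*, *Kdm5d*, *Eif2s3y* and *Uty* summed to at most 2.10 normalized reads in a Gfi1+/+ library and to between 794 and 1621 in a Gfi1cre/+ library. *Xist*, a transcript of female cells, had 7338, 7936 and 8138 normalized reads in Gfi1+/+ and 5359, 4987 and 2301 in Gfi1cre/+. The Y-linked sums in Gfi1cre/+ were 794, 902 and 1621, so both measures also differed between its pools. The authors describe the Gfi1cre/+ samples as mainly male and the Gfi1+/+ samples as mainly female. Sex and genotype cannot be told apart in any comparison below. All 5 hair cell markers (*Myo7a*, *Pou4f3*, *Slc26a5*, *Otof* and *Ocm*) and all 5 supporting cell markers (*Sox2*, *Gjb2*, *Gjb6*, *Otog* and *Tecta*) were tested, and their sums were at least 4688 and 43591 normalized reads in every library.

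The promoters of 8 of the 10 genes were found in a RefSeq table of GRCm38.p6. Those of *Junb*, *Atf3* and *Dusp1* are shown because these genes varied most alike across the libraries. That of *Nr4a1* is shown because it varied least like the others, and those of *Fos* and *Zfp36* because they hold a TATA box and a CArG box (the element bound by SRF). Each sequence is the 150 bases just before the annotated start, 5′ to 3′ on the strand of the gene. Capitals mark TGACG on either strand (the core of the CREB site), TATAAA and the CArG box.

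*Fos*, chr12:85473740-85473889, plus strand: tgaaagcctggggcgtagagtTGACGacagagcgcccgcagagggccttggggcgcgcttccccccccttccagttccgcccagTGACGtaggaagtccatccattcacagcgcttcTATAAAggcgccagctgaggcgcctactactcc

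*Junb*, chr8:84978749-84978898, minus strand: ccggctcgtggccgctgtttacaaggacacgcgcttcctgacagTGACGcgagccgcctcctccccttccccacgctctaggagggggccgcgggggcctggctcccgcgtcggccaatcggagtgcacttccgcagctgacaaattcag

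*Atf3*, chr1:191183334-191183483, minus strand: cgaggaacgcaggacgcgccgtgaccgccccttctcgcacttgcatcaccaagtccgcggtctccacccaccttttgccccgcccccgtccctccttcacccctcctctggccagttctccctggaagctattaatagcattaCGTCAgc

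*Dusp1*, chr17:26508473-26508622, minus strand: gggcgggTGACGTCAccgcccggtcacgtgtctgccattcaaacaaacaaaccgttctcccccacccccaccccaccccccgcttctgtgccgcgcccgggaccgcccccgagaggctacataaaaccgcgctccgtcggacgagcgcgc

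*Nr4a1*, chr15:101266696-101266845, plus strand: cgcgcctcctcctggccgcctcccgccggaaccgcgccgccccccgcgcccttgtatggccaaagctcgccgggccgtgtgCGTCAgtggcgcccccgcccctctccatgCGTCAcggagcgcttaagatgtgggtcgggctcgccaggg

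*Zfp36*, chr7:28379229-28379378, minus strand: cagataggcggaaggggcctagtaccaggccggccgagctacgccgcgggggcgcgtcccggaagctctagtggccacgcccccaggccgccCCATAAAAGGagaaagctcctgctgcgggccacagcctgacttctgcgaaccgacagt

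Over the 250 bases before the start, TGACG (searched with its reverse complement CGTCA) was present in 6 of the 8 promoters (*Fos*, *Fosb*, *Junb*, *Atf3*, *Dusp1* and *Nr4a1*), and in 17.8% of 32851 mouse promoters. The full palindrome TGACGTCA, which contains TGACG on both strands, was found in *Dusp1* alone of the 8, 143 bases before the start, and in 1.55% of all promoters. The CArG box was found in *Zfp36*, 58 bases before the start, and in 1.47% of all promoters. TATAAA, searched with its reverse complement TTTATA, was found in *Fos* and in 12.4% of all promoters. TGANTCA, the AP-1 site, was in none of the 8 and in 6.75% of all promoters. The EGR site GCGGGGGCG, searched with its reverse complement, was in *Fosb*, *Zfp36* and *Nr4a1* and in 2.57% of all promoters. These are matches of letters only, and no match in this window says nothing about a factor.

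All 10 genes were detected in every library, at levels that differed widely from gene to gene. Per kilobase of exon, *Ier2* was the most abundant, with a mean of 716 normalized reads over the 6 libraries, above 91.4% of the genes tested. *Egr1* (207 per kilobase), *Jun* (191) and *Junb* (160) followed, above between 61.1% and 68.6% of the genes tested. *Zfp36* (97.5), *Dusp1* (83.5), *Nr4a1* (74.6) and *Fos* (63.0) lay in the middle. *Atf3* (23.5) and *Fosb* (9.69) were the lowest, above 14.0% and 4.23% of the genes tested. No gene differed by more than 1.76-fold between its highest and its lowest library.

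The FOS family and *Jun* overlapped between the genotypes. *Fos*, the founding subunit, had 143, 136 and 168 normalized reads in Gfi1+/+, and 139, 162 and 139.6 in Gfi1cre/+. The genotypes overlapped, and the highest and the lowest library were both Gfi1+/+. *Fosb*, whose product pairs with JUN proteins as FOS does, had 56.8, 48.2 and 81.2 normalized reads in Gfi1+/+ and 61.8, 46.2 and 68.9 in Gfi1cre/+. It varied the most of the 10, by 1.76-fold between Gfi1+/+ replicate 3 and Gfi1cre/+ replicate 2, but on no more than 77 reads in a library. *Jun*, the main partner of FOS proteins, had 620, 555 and 668 normalized reads in Gfi1+/+ and 594, 582 and 637 in Gfi1cre/+. All Gfi1cre/+ libraries lay within the range of the Gfi1+/+ libraries.

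*Junb* and *Atf3* had their lowest values in Gfi1+/+ replicates 1 and 2. *Junb*, a JUN protein that also restrains JUN activity, had 302, 332.95 and 389 normalized reads in Gfi1+/+ and 379, 381 and 419 in Gfi1cre/+. Only Gfi1+/+ replicate 3 reached into the range of the Gfi1cre/+ libraries. *Atf3*, a stress-induced bZIP factor and a marker of injured neurons, had 40.7, 46.1 and 58.0 normalized reads in Gfi1+/+ and 53.1, 50.6 and 55.7 in Gfi1cre/+. The genotypes again overlapped through Gfi1+/+ replicate 3, which had the highest value of all 6 libraries.

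The factors outside AP-1 divided between a variable and a flat gene. *Egr1*, a zinc finger factor induced through SRF, had 848, 725 and 1017 normalized reads in Gfi1+/+ and 1009, 1017 and 942 in Gfi1cre/+. Its lowest library was Gfi1+/+ replicate 2, and Gfi1+/+ replicate 3 lay within the Gfi1cre/+ range. *Nr4a1*, an orphan nuclear receptor, had 253, 260 and 250 normalized reads in Gfi1+/+ and 256, 258 and 293 in Gfi1cre/+. Apart from Gfi1cre/+ replicate 3, its libraries lay within 10 normalized reads of each other. *Ier2*, a nuclear protein of the same early response, had 987, 1092 and 1059 normalized reads in Gfi1+/+ and 1127, 1157 and 1114 in Gfi1cre/+. It was the only gene of the 10 in which every Gfi1cre/+ library lay above every Gfi1+/+ library.

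The feedback genes followed *Junb* and *Atf3*. *Dusp1*, a phosphatase that inactivates MAP kinases, had 250.6, 250.2 and 292 normalized reads in Gfi1+/+ and 291, 278 and 297 in Gfi1cre/+. Gfi1+/+ replicates 1 and 2 were the lowest and the other 4 libraries lay together. *Zfp36*, which encodes tristetraprolin, a protein that speeds decay of mRNAs with AU-rich elements, had 309, 311 and 367 normalized reads in Gfi1+/+ and 346, 366 and 332 in Gfi1cre/+. Gfi1+/+ replicates 1 and 2 were again the lowest, and Gfi1+/+ replicate 3 was the highest.

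**Figure D1:**
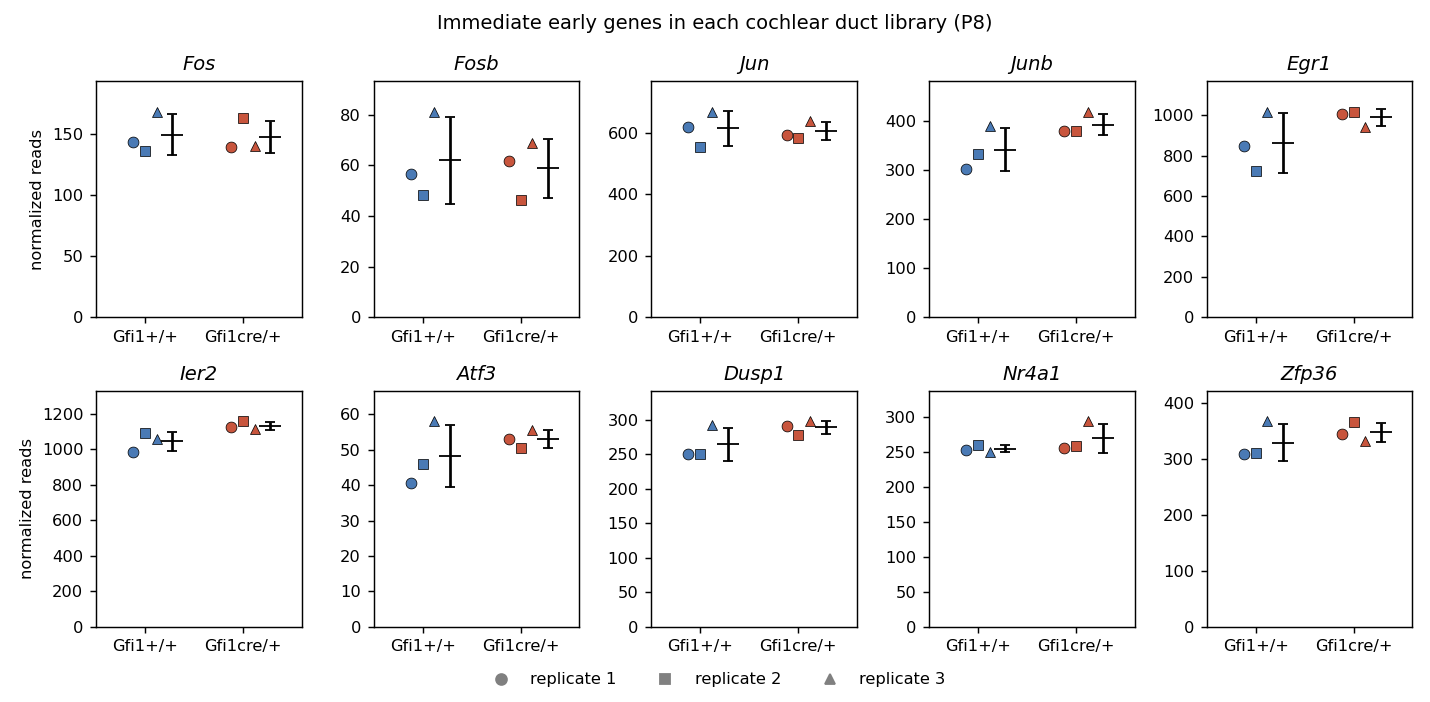
Normalized reads (y axis, from 0) of each of the 10 genes in the 3 Gfi1+/+ and 3 Gfi1cre/+ libraries, with the marker giving the replicate and the bar at the right of each group its mean and SD (n = 3). Gfi1+/+ replicate 3 was the highest library for 5 genes, and for 3341 of all 14455 genes tested. In *Ier2* the genotypes did not overlap.

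The question of the comparison was whether the Gfi1cre/+ cochlea differs from its control at an age the authors chose to avoid bias from later hair cell loss. For these genes no difference passed the test. Of the 10 genes, 0 had an adjusted p-value under 0.05 (limma on log2(normalized reads + 1), two-sided, Benjamini-Hochberg adjustment over 14455 genes), where 0.0277% of all genes tested did. The genes that did were the 4 Y-linked genes named above. No gene of the 10 had an unadjusted p-value under 0.05 either, where 3.04% of all genes tested did, and edgeR and DESeq2 on the recovered reads also called 0. The adjusted p-value was 0.999 for each gene. In 1 of the 10, *Ier2*, the libraries of the genotypes did not overlap, where this held for 7.52% of all genes tested in either direction and for 3.45% with Gfi1cre/+ higher. The exact permutation test gave a two-sided p = 0.1 for *Ier2*, the smallest that 3 libraries against 3 allow. In these bulk samples fewer cells of a type and less RNA per cell cannot be told apart.

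The estimates were small and leaned upward. The log2 fold change, Gfi1cre/+ against Gfi1+/+, was above 0 in 7 of the 10 genes, with a median of 0.0998 over the 10 and of -0.000116 over all genes tested. *Egr1* and *Junb* had the largest estimates. That of *Egr1* was 0.21 (standard error 0.110, 95% interval -0.04 to 0.46), from means of 989 ± 41.4 normalized reads in Gfi1cre/+ and 863 ± 147 in Gfi1+/+ (SD, n = 3). That of *Junb* was 0.21 (standard error 0.0997, interval -0.02 to 0.43), from 393 ± 22.4 and 342 ± 44.0. *Ier2* had 0.12 (standard error 0.0584, interval -0.02 to 0.25), from 1133 ± 21.7 and 1046 ± 53.5. The estimate was 0.15 for *Atf3*, 0.13 for *Dusp1*, and 0.08 for both *Zfp36* and *Nr4a1*. For *Fos*, *Jun* and *Fosb* it was -0.02, -0.02 and -0.06, and the sign of each turned when Gfi1+/+ replicate 3 was left out, to 0.07, 0.04 and 0.15. That of *Fos* also turned without Gfi1cre/+ replicate 1 or 3, and those of *Jun* and *Fosb* without Gfi1cre/+ replicate 2.

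Single libraries also moved the other estimates. Without Gfi1+/+ replicate 1, *Atf3* came to 0.04, *Zfp36* to 0.04, *Ier2* to 0.07 and *Junb* to 0.12. Without Gfi1+/+ replicate 2, *Egr1* came to 0.09, below *Junb* at 0.19, and *Zfp36* to 0.05. Without Gfi1+/+ replicate 3, *Egr1* came to 0.33, *Atf3* to 0.29, *Dusp1* to 0.20 and *Zfp36* to 0.17. *Nr4a1* came to 0.02 without Gfi1cre/+ replicate 3, and *Zfp36* to 0.05 without Gfi1cre/+ replicate 2.

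The intervals bound what 3 libraries a genotype could show. The upper end of the 95% interval was at most a 1.51-fold higher level in Gfi1cre/+, for *Atf3*, and the lower end was at least 0.660-fold, for *Fosb*. For *Jun* and *Ier2*, with more reads, the intervals ran from 0.870 to 1.12-fold and from 0.989 to 1.19-fold. With 1 library left out in turn, the median of the 10 estimates ran from 0.0576, without Gfi1+/+ replicate 1, to 0.158, without Gfi1+/+ replicate 3. Without Gfi1+/+ replicate 3, 3 of the 10 genes had an unadjusted p-value under 0.05 and 0 an adjusted one, where 16.2% of all genes tested had the former.

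**Figure D2:**
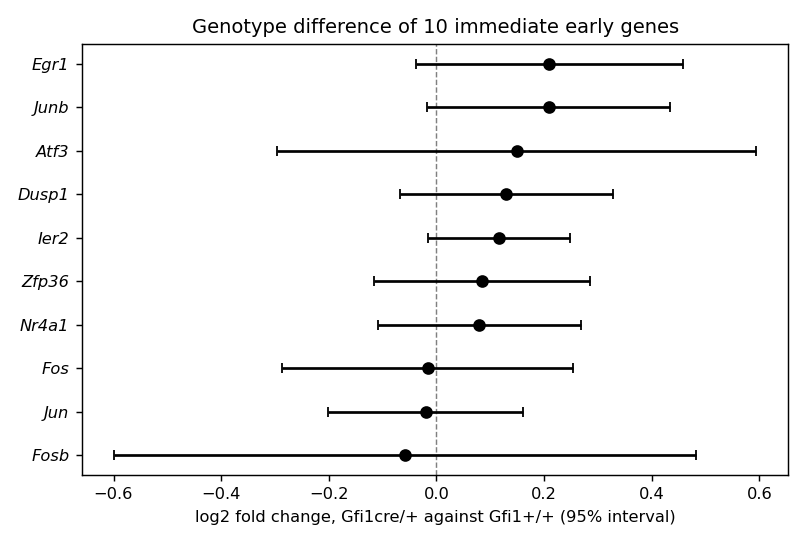
Log2 fold change of each gene, Gfi1cre/+ against Gfi1+/+ (x axis), with its 95% interval from limma; the dashed line marks no difference. Every interval contains 0, and the 3 estimates under 0 are *Fos*, *Jun* and *Fosb*.

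Most of the variation lay between the Gfi1+/+ libraries rather than between the genotypes. Averaged over the 10 genes, the log2 deviation from each gene's own mean came to -0.122, -0.141 and 0.130 in Gfi1+/+, against 0.0333, 0.0130 and 0.0859 in Gfi1cre/+. Gfi1+/+ replicates 1 and 2 lay at the bottom and Gfi1+/+ replicate 3 at the top, with the Gfi1cre/+ libraries between them. Gfi1+/+ replicates 1 and 2 were each the lowest library for 4 of the 10 genes, and neither was the highest for any. Of all 14455 genes tested, they were the lowest library for 3399 and 2499, and the highest for 3598 and 2506. Gfi1+/+ replicate 3 was above the gene's mean in 8 genes, the exceptions being *Ier2* and *Nr4a1*, and in 7310 of all genes tested. The SD of log2(normalized reads + 1) was larger between Gfi1+/+ libraries than between Gfi1cre/+ libraries in 9 of the 10 genes, all but *Nr4a1*, and in 71.2% of all genes tested. Its median was 0.149 in Gfi1+/+ and 0.0688 in Gfi1cre/+ over the 10 genes, and 0.119 and 0.0737 over all genes tested. A Gfi1+/+ library is 1 mouse and a Gfi1cre/+ library an average over 3.

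Set against counting error alone, the spread differed greatly from gene to gene. The variance between Gfi1+/+ libraries was 23.7 times that expected from counting for *Egr1*, a ratio above that of 91.9% of the genes tested. It was 5.03 times for *Junb*, 4.97 for *Jun* and 4.46 for *Fosb*. For *Fos* and *Atf3* it was 1.74 and 1.44, and the median was 2.71 both over the 10 genes and over all genes tested. *Nr4a1*, at 0.0910, varied less than counting alone gives on average. Between Gfi1cre/+ libraries the ratio ran from 0.132 for *Atf3* to 2.53 for *Fosb*. At the same relative spread this ratio rises with the reads on a gene, so it does not rank genes by variability. On the log2 scale the SD between Gfi1+/+ libraries was 0.379 for *Fosb* and 0.254 for *Atf3*. It was 0.244 for *Egr1* and lower for the rest of the 10 genes.

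The genes did not vary as a single block. Over the 6 libraries, Pearson's r was positive in 40 of the 45 pairs, with a median of 0.473, and over 0.8 in 7 of them, or 15.6%. Over all pairs of genes tested, the median was -0.001, 49.95% were positive and 4.56% were over 0.8. After the mean of each genotype was subtracted, the median over the 45 pairs was 0.476, with 38 pairs positive. The points of every pair are the same 6 libraries, so the pairs are not independent of each other, and these counts are a description.

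The tightest group was *Junb*, *Atf3* and *Dusp1*, whose promoters are shown above. *Junb* and *Atf3* had r = 0.943 (exact permutation p = 0.0111, adjusted p = 0.125 over 45 pairs, n = 6) and Spearman's rho = 0.886 (exact p = 0.0333, adjusted p = 0.300). *Junb* and *Dusp1* had r = 0.938 (exact permutation p = 0.00833, adjusted p = 0.125, n = 6), and *Atf3* and *Dusp1* had r = 0.930 with the same p-values. Their rho and its p-values equalled those of *Junb* and *Atf3*. Without the pair of libraries farthest from the median, r was 0.484, 0.689 and 0.798 in these pairs over the remaining 4 libraries.

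Other pairings ran beside this group. *Fosb* and *Jun* had r = 0.902 (exact permutation p = 0.0194, adjusted p = 0.175, n = 6), and *Egr1* and *Zfp36* had r = 0.869 (exact permutation p = 0.0111, adjusted p = 0.125, n = 6), with rho = 0.886 in both (exact p = 0.0333, adjusted p = 0.300). Without the pair of libraries farthest from the median, r was 0.860 (0.770 where these are taken on *Jun*) and 0.873. No pair among the 45 had an adjusted p-value under 0.05. *Fos* and its close relative *Fosb* had r = 0.249 (exact permutation p = 0.626, adjusted p = 0.723, rho = 0.257 with exact p = 0.658 and adjusted p = 0.760, n = 6, r = 0.434 without the libraries farthest on *Fos*). This value rested on single libraries, being 0.793 without Gfi1cre/+ replicate 2 and -0.520 without Gfi1+/+ replicate 3.

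*Ier2* and *Nr4a1* went with the others least. All 5 pairs with a negative r held one of them, and the lowest was *Fos* with *Nr4a1*, r = -0.404 (exact permutation p = 0.464, adjusted p = 0.656, rho = -0.600 with exact p = 0.242 and adjusted p = 0.637, n = 6, r = -0.126 without the libraries farthest on *Fos*). Against the mean standardised profile of the other 9 genes, r was 0.956 for *Dusp1*, 0.921 for *Atf3* and 0.909 for *Junb*, and 0.372 for *Ier2* and 0.177 for *Nr4a1*, as a description over the same 6 libraries.

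**Figure D3:**
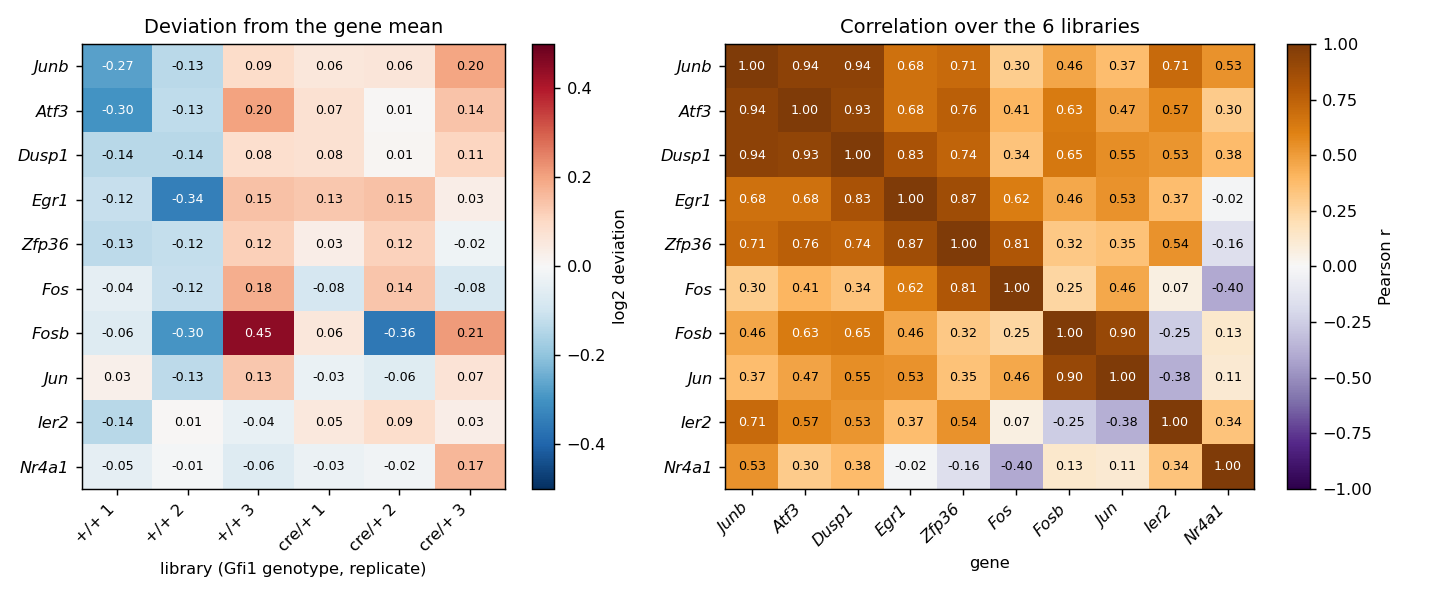
Left, log2 deviation of each gene (rows) from its own mean in each library (columns, the Gfi1 genotype and replicate number); right, Pearson's r of each pair of genes over the 6 libraries. The deviations of Gfi1+/+ replicates 1 and 2 are mostly below 0, and *Junb*, *Atf3* and *Dusp1* form the block with r from 0.930 to 0.943.

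The profile was not particular to immediate early genes. Among the other 14445 genes tested, 598, or 4.14%, had r over 0.9 with the mean profile of the 10 genes over the 6 libraries. The 10 most alike were *Ablim1*, *Adra2a*, *2510039O18Rik*, *Gdpd5*, *Capn1*, *Cbx6*, *Il17re*, *Atp1b2*, *Sun2* and *Urgcp*, with r from 0.989 to 0.999. *Adra2a*, an adrenergic receptor, had 885, 900.4 and 1424 normalized reads in Gfi1+/+ and 1198, 1253 and 1374 in Gfi1cre/+. *Ablim1*, an actin-binding LIM protein, had 2374, 2373 and 2754 in Gfi1+/+ and 2610, 2640 and 2734 in Gfi1cre/+. In both, Gfi1+/+ replicates 1 and 2 were lowest and Gfi1+/+ replicate 3 highest.

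Further immediate early genes deviated less. Of 54 further early genes listed by name, 50 were in the table and 49 were tested. Of the 49, 0 had an adjusted p-value under 0.05 in either direction by limma, edgeR or DESeq2. Their median log2 fold change was 0.0230, with 31 above 0 and 18 below. Their mean log2 deviation came to -0.0595, -0.0221 and 0.0452 in Gfi1+/+, against 0.00736, -0.0144 and 0.0435 in Gfi1cre/+, so that Gfi1+/+ replicate 1 was lowest and Gfi1+/+ replicate 3 highest. *Npas4*, *Egr4*, *Dusp2* and *Ptgs2* were not in the table, and *Cebpb* was under the minimum.

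Relatives of the AP-1 and EGR genes differed in sign. *Jund*, another JUN protein, had 986, 1027 and 1132 normalized reads in Gfi1+/+ and 1063, 923 and 1161 in Gfi1cre/+ (log2 fold change -0.0030). *Fosl2*, a FOS relative, had 227, 285 and 294 in Gfi1+/+ and 293, 308 and 337 in Gfi1cre/+ (0.22). Gfi1+/+ replicate 1 was the lowest library for both *Fosl2* and *Junb*. *Egr2*, which controls myelination in Schwann cells, had 107, 124 and 147 in Gfi1+/+ and 86.2, 98.5 and 132 in Gfi1cre/+ (-0.26), opposite in sign to *Egr1*. *Egr3* had the estimate 0.23 and rested on between 25 and 55 reads per library. None of these 4 had an unadjusted p-value under 0.05.

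The other named early genes had no unadjusted p-value under 0.05. *Arc*, a synaptic activity gene, had 49.4, 45.02 and 35.9 normalized reads in Gfi1+/+ and 38.3, 37.3 and 36.8 in Gfi1cre/+. It rested on between 34 and 44 reads per library, and its variance between Gfi1+/+ libraries was 0.986 times that expected from counting. Its highest library was Gfi1+/+ replicate 1, in which the summed reads of 11 neuron markers were also highest. A link between the 2 was not tested. *Nr4a2* and *Nr4a3*, the relatives of *Nr4a1*, had estimates of 0.16 and -0.10. *Btg2*, an antiproliferative early gene, had 0.04, and *Ier3* and *Ier5* had -0.01 and -0.0018. *Klf4*, a zinc finger factor, had 0.12, with Gfi1+/+ replicate 3 again the highest library at 2156 normalized reads.

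The single gene of the 49 with an unadjusted p-value under 0.05 was *Irf1*, a factor of the interferon response, against 3.04% of all genes tested. It had 358, 343 and 371 normalized reads in Gfi1+/+ and 383, 455 and 409 in Gfi1cre/+, and the genotypes did not overlap (log2 fold change 0.21 with a standard error of 0.0817, limma adjusted p = 0.999). *Hbegf*, an EGF receptor ligand, was the other gene without overlap, named after its values were seen, which made 2 of 49 where 7.52% of all genes tested had none, with 201, 196 and 212 in Gfi1+/+ and 223, 244 and 214 in Gfi1cre/+.

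Heat shock genes, which cells induce on warming and protein damage, had another order of libraries in their mean. All 11 were tested and 0 had an adjusted p-value under 0.05 or an unadjusted one by limma. Their mean log2 deviation was highest in Gfi1+/+ replicate 2, at 0.0706, and lowest in Gfi1+/+ replicate 3, at -0.0434, where the 10 immediate early genes were lowest and highest. The whole list did not share this order. In Gfi1+/+ replicate 2, 6 of the 11 genes were above their own mean, as were 6 in Gfi1+/+ replicate 1, the highest library for 5. *Hspa1a* and *Hspa1b* weighed on both means, deviating by -0.521 and -0.443 in Gfi1+/+ replicate 1 and by 0.300 and 0.258 in Gfi1+/+ replicate 2. *Hspa1a* had 33.3, 59.7 and 46.4 normalized reads in Gfi1+/+ and 53.1, 50.6 and 51.0 in Gfi1cre/+, and *Hspa1b* had 82.7, 135 and 130 in Gfi1+/+ and 102, 119 and 117 in Gfi1cre/+. These are near-identical copies, and reads that match both were dropped, so their values are uncertain. *Dnajb1*, their cochaperone, had 862, 893 and 909 in Gfi1+/+ and 889, 936 and 964 in Gfi1cre/+.

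Markers of other cell types moved with the same libraries. The 5 osteoblast genes summed to 25276, 20733 and 45574 normalized reads in Gfi1+/+, and to between 34288 and 37695 in Gfi1cre/+, so that Gfi1+/+ replicates 1 and 2 were lowest and Gfi1+/+ replicate 3 highest, as for the immediate early genes. The 6 granulocyte precursor genes tested summed to 61.7, 78.5 and 271 in Gfi1+/+ and to 460, 236 and 290 in Gfi1cre/+. They were lowest in Gfi1+/+ replicates 1 and 2 but highest in Gfi1cre/+ replicate 1. The 11 neuron genes were highest in Gfi1+/+ replicate 1, with 10276, 3762 and 2314 in Gfi1+/+ and between 1851 and 2689 in Gfi1cre/+. By limma, 4 of the 6 granulocyte precursor genes were higher in Gfi1cre/+ at an unadjusted p-value under 0.05. Of the 11 neuron genes, 5 were lower at that threshold, as against 3.04% of all genes tested in either direction. None of the osteoblast genes reached it, and no gene of these lists had an adjusted p-value under 0.05. All genes of these lists that were tested were detected in every library.

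Other lists moved less or in another order. The 6 Schwann cell genes summed to between 19888 and 36671 in Gfi1+/+ and between 16484 and 25686 in Gfi1cre/+, highest in Gfi1+/+ replicate 1. The 9 erythroid genes summed to between 29478 and 43837 in Gfi1+/+ and between 38358 and 66386 in Gfi1cre/+, and *Hemgn* among them was at 0 in Gfi1+/+ replicate 1. By limma, all 9 were higher in Gfi1cre/+ at an unadjusted p-value under 0.05, where 3.04% of all genes tested had one in either direction. None had an adjusted one. In 4 of the 9 the genotypes did not overlap, where this held for 7.52% of all genes tested. The 7 macrophage genes listed summed to between 6224 and 6866 in Gfi1+/+ and between 6192 and 6718 in Gfi1cre/+, and the 6 endothelial genes to between 4784 and 5663 and between 5063 and 6001. An unadjusted p-value under 0.05 by limma was found for 2 endothelial genes and for 0 of the Schwann cell and macrophage genes. Of 6 skeletal muscle genes only *Myh8* and *Tnnt3* were listed, with at most 34.9 normalized reads together. The share of all normalized reads on the 10 mitochondrial genes listed was 1.95% in Gfi1+/+ replicate 1 and between 1.61% and 1.68% in the other 5 libraries. The part of these cell types and of mitochondrial RNA in the variation of the immediate early genes was not tested.

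**Figure D4:**
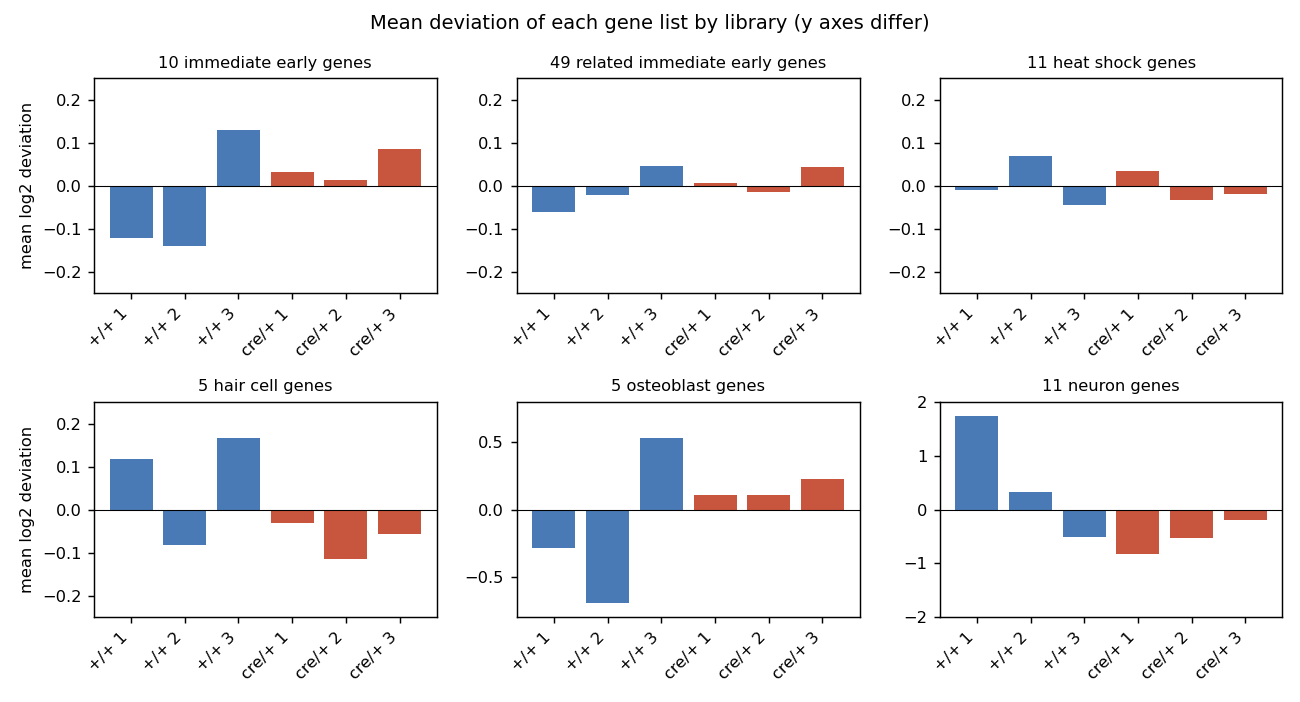
Mean log2 deviation from each gene's own mean (y axis, on differing scales) of 6 gene lists in each library (bars, blue Gfi1+/+ and red Gfi1cre/+). The 10 immediate early genes and the osteoblast genes are lowest in Gfi1+/+ replicates 1 and 2 and highest in replicate 3, and the neuron genes are highest in Gfi1+/+ replicate 1.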

How the data were processed

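RNA of cochlear ducts from 3 Gfi1+/+ and 3 Gfi1cre/+ libraries was analysed from a single table of normalized reads. The libraries (TruSeq, polyA RNA) were read from both ends, and the authors used Tophat to align reads to mm10 and HTSeq-count to count those with a unique position, then dropped genes with fewer than 40 reads. Versions, annotation and strand setting are not given in the sources used here. The deposited signal is described as quantile-normalized, but 100% of the values in each column were whole multiples of 1 step, to within the rounding of the 2nd decimal, so each is a read count over 1 size factor. These factors differed from median-of-ratios factors of the recovered reads by a relative 4.42e-09 at most. Column names gave genotype and replicate.

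A gene was tested if any library reached 40 normalized reads, with limma (version 3.58.1, R 4.3.3) on log2(value + 1), eBayes with a trend, genotype as the only term, two-sided, with Benjamini-Hochberg adjustment over 14455 genes. This scale understates the fold change of low genes. On the recovered reads, DESeq2 (version 1.42.0) and the quasi-likelihood test of edgeR (version 4.0.16) were alternatives, and the steps were tested on simulated counts. Replicates are separate mice or pools of mice. The genes and lists were chosen with earlier results of these data known. All 10 genes were named, with the other early genes named by a fixed list or by an unadjusted p-value under 0.05, and the 10 genes closest in profile. Exon lengths came from GENCODE vM21 (GRCm38, the assembly of mm10), to which 14796 gene identifiers matched, and promoters from RefSeq on GRCm38.p6. Ratios to counting error treat reads as independent, and the intervals rest on limma's estimate of the variance between libraries.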

Additional observations from a re-analysis of the deposited data

How the results depend on the processing

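None of the 10 genes passed the adjusted threshold in any of the 16 alternatives, nor did any of the related early genes, and the estimates of *Junb*, *Egr1*, *Ier2*, *Atf3*, *Dusp1*, *Nr4a1* and *Zfp36* stayed above 0 in all of those in which they were tested. The others turned sign. With quantile normalization *Fos* was 0.039 and *Fosb* 0.012 on the log2 scale, and with 1 library left out in turn *Fos* ran from -0.089 to 0.071, *Fosb* from -0.22 to 0.15 and *Jun* from -0.091 to 0.042. The median estimate ran from 0.0576 to 0.158 with 1 library left out. The median pairwise correlation was 0.576 with quantile normalization and ran from 0.357, without Gfi1+/+ replicate 2, to 0.634, without Gfi1cre/+ replicate 2. Under quantile normalization, chosen for this count after the values had been seen, *Nr4a1* joined *Ier2* as a gene without overlap, which made 2.

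Over all genes, the 4 calls were the 4 Y-linked genes, with means from 78.5 to 168 normalized reads over the 6 libraries. Requiring a mean of 200 left these genes out, and the calls became 0. DESeq2 gave 10 calls. With 1 library left out in turn the calls ran from 0, without Gfi1cre/+ replicate 3, to 48, without Gfi1+/+ replicate 3. Without Gfi1+/+ replicate 2 they were 8. The cause of the changes with DESeq2 or with a library left out was not tested. With the replicate number as a block the calls were 4 among all genes and 0 among the 10, where 1 gene of the 10 had an unadjusted p-value under 0.05, against 3.20% of all genes tested. The correlations of same-numbered deviations over all genes tested were -0.0944, 0.107 and -0.0326, and those of unlike numbers ran from -0.156 to 0.150. With 3 libraries a genotype, these values cannot settle whether the numbers pair the libraries. *Fosb* and *Atf3*, with at most 77 and 61 reads in a library, have the widest intervals.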

Other observations

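The regulators upstream of these genes did not pass the test. All 22 listed kinases and factors were tested, among them *Srf*, *Elk1*, *Creb1* and the MAP kinase genes, and 0 had an adjusted p-value under 0.05 or an unadjusted one by limma. Their median log2 fold change was 0.0404, with 17 above 0 and 5 below. In 2 of the 22 the genotypes did not overlap, named after their values were seen, where this held for 7.52% of all genes tested. *Mapk14*, which encodes the stress kinase p38α, had 1315, 1399.9 and 1436 normalized reads in Gfi1+/+ and 1509, 1485 and 1471 in Gfi1cre/+. *Mapk9*, which encodes a JUN N-terminal kinase, had 1320, 1123 and 1202 in Gfi1+/+ and 1094, 1101 and 1085 in Gfi1cre/+.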
